A study of Mus musculus with 8 samples.

Results

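The genes described here are 33 genes of fat cell formation and lipid storage, chosen by symbol. They cover transcription factors that commit mesenchymal cells to the fat lineage, proteins that take up and carry fatty acids, 2 adipokines (hormones released by fat cells), proteins of the lipid droplet, and enzymes that build triglycerides and fatty acids. All 33 were found among the 18605 genes of the count table. They were measured by RNA sequencing in C3H10T1/2 cells, a mouse mesenchymal line of C3H embryo origin that can enter the bone, cartilage and fat lineages. The cells had received a lentivirus with a non-target control (NC) or with a short hairpin RNA against *Nap1l2* (KD-Nap1l2), a histone chaperone gene. Cells were harvested before induction, or as NC-7d and KD-Nap1l2-7d when osteogenic medium had been given for 7 days, and each of the 4 groups had 2 libraries. The osteogenic medium held dexamethasone, a synthetic glucocorticoid, with ascorbic acid and β-glycerol phosphate, and neither uninduced group received it. The study's methods describe infected cells and no selection of a clone.

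Fat cell formation runs through a cascade of transcription factors. *Cebpb* and *Cebpd* are switched on early by hormones, glucocorticoid among them, and turn on *Pparg* and *Cebpa*, which hold each other on and drive the genes of the mature fat cell. *Pparg* has alternative first exons that give a widely expressed protein, PPARγ1, and a longer form, PPARγ2, that is largely particular to fat cells. In a storing cell, fatty acids are joined to glycerol phosphate step by step by *Gpam*, *Agpat2*, *Lpin1* and *Dgat1* or *Dgat2*, the triglyceride is coated by perilipins, and the lipases *Pnpla2* and *Lipe* release it again.

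Library totals ran from 17420284 to 19427359 counts. The targeted gene had few counts in any library. *Nap1l2* had 3 and 3 counts in NC, 2 and 7 in KD-Nap1l2, 15 and 5 in NC-7d, and 7 and 13 in KD-Nap1l2-7d. A reduction of *Nap1l2* was therefore not detectable at this depth, and the shRNA groups are named below as their labels give them. The study reported knockdown in this cell line by western blot and qPCR, and the counts here are too few to judge it. Summed markers of other lineages were low in every library: 7.93 to 15.0 CPM (counts scaled to a library of 1000000) for 7 blood cell genes, 3.75 to 20.0 CPM for 7 endothelial genes and 1.89 to 9.17 CPM for 7 epithelial genes, against 14896 to 35212 CPM for 16 mesenchymal genes. The labels do not say that the 2 libraries of a group came from separate cultures, so p-values measure the spread between these libraries, which may be technical. In such bulk samples, fewer cells of a type and less RNA per cell cannot be told apart.

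On the length-scaled measure (FPKM), the levels of the list covered a wide range. In NC, 17 of the 33 genes had a mean of at least 10 FPKM, 9 lay between 1 and 10 FPKM and 7 were under 1 FPKM, among them *Plin1*, *Cidec* and the preadipocyte factor *Ebf2*. *Scd2*, a stearoyl-CoA desaturase, was the highest, with a mean level of 157 FPKM in NC and 196 FPKM in KD-Nap1l2. *Plin2*, the perilipin found on lipid droplets of most cell types, came next with 128 and 119 FPKM. After induction *Plin2* was the highest, at 347 FPKM in NC-7d and 549 FPKM in KD-Nap1l2-7d. *Fabp4*, the fatty acid carrier of fat cells and macrophages, had rank 19 in NC at 8.88 FPKM, rank 3 in NC-7d at 152 FPKM and rank 2 in KD-Nap1l2-7d at 159 FPKM. The highest gene lay above the next without overlap in each group, but 17 of the 32 neighbouring pairs in this order overlapped in NC, 26 in KD-Nap1l2, 21 in NC-7d and 20 in KD-Nap1l2-7d.

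**Figure D1:**
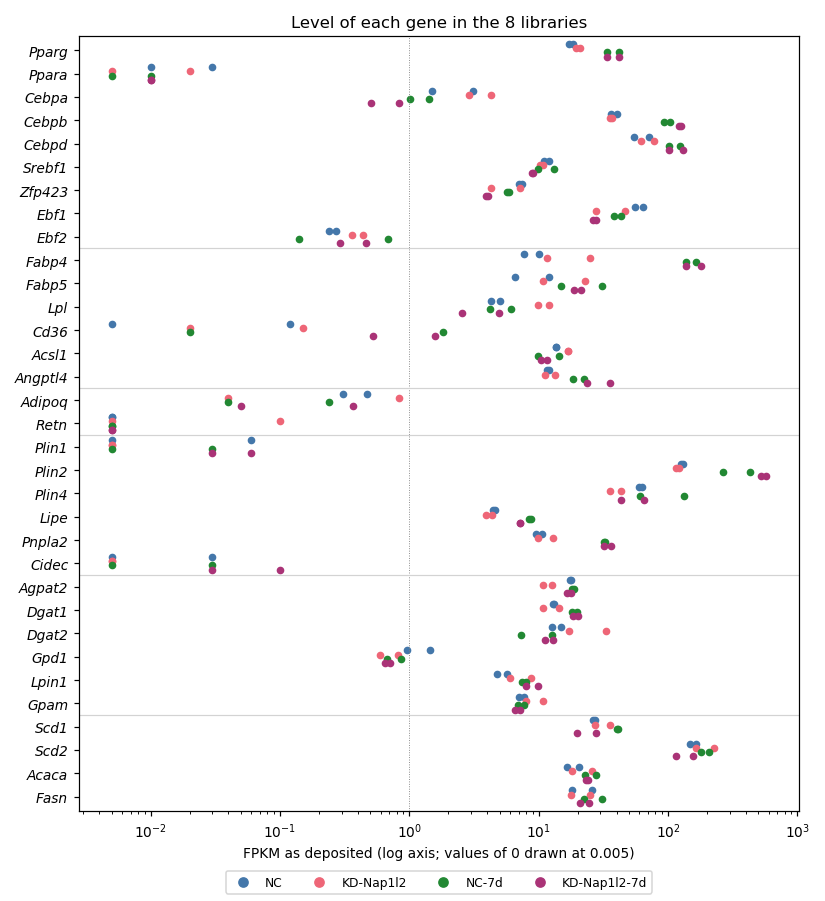
FPKM of the 33 genes (log axis) in the 8 libraries, 2 points a group, with the genes grouped by role from transcription factors at the top to fatty acid synthesis at the bottom. *Scd2* and *Plin2* lie at the right in every library, while *Ppara*, *Retn*, *Plin1* and *Cidec* stay below 1 FPKM, and *Fabp4* moves from 8.88 FPKM in NC to 152 FPKM in NC-7d.

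Several genes of mature fat cells stayed at a few counts. *Plin1*, the perilipin of the large fat cell droplet, had at most 2 counts in any library. *Cidec*, which enlarges droplets in white fat cells, had at most 3 counts, and *Retn*, the adipokine resistin, had 1 count in all 8 libraries together. *Ppara*, a regulator of fatty acid oxidation, had at most 4 counts. These 4 genes were too low to be tested, which left 29. *Adipoq*, the adipokine adiponectin, passed the filter with 7 and 11 counts in NC, 18 and 1 in KD-Nap1l2, 5 and 1 in NC-7d and 1 and 8 in KD-Nap1l2-7d, so its groups overlapped except that NC-7d lay below NC. Levels differed widely among the 17 measured genes of a further list of adipokines and late fat cell genes. In it, 6 genes stayed under 1 CPM in every library and 5 exceeded 100 CPM in some library. *Lep* (leptin) reached 0.114 CPM, *Ucp1* 0.0525 CPM, *Adrb3* 0.229 CPM and *Cfd* (adipsin) 0.469 CPM in their highest library. The 5 above 100 CPM were *Cdo1*, *Adipor1*, *Adipor2*, *Itgb5* and *Pcx*, which other tissues express as well. The single genes named from this list were chosen after their values were seen.

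Part of the list was higher after osteogenic induction of the control cells. The 4 groups include no culture kept for 7 days without the osteogenic medium. Changes over induction are therefore changes with the medium and the time in culture together, which cannot be told apart. Between NC and NC-7d, 6 of the 29 tested genes were called higher and 0 lower, at a Benjamini-Hochberg adjusted p under 0.05 in edgeR's quasi-likelihood test. At an unadjusted p under 0.05 there were 14, of which 1 (*Ebf1*) was lower, against 24.5% of all genes, and DESeq2 called 10, with 0 lower. Over all 13470 genes tested, edgeR called 8.21% in this comparison, 4.83% higher and 3.38% lower. DESeq2 called more genes than edgeR over all genes too, and its counts are given below with the processing. The median log2 fold change over the 29 genes was 0.56, against -0.0035 over all genes. In the cells with the shRNA, 9 genes were called higher and 4 lower between KD-Nap1l2 and KD-Nap1l2-7d, where 14.2% of all genes were called, 6.84% higher and 7.36% lower. An unadjusted p under 0.05 was found for 17, against 31.4% of all genes. The median over the 29 genes was 0.13 there, against -0.0070 over all genes. All 6 genes called in the control cells were also called, in the same direction, in the shRNA cells, which is 100% of the first list and 46.2% of the second. Over all genes, 67.1% of the calls in control cells were also calls in shRNA cells, and 38.8% of those in shRNA cells were also calls in control cells. The 2 comparisons share no library, although 1 fit over all 8 libraries gave both their spread. Across the 29 genes, 25 had the same sign in both comparisons, and the log2 fold changes had a Pearson r of 0.89 and a Spearman rho of 0.86, a description over genes, which are not independent replicates. Over all genes r was 0.71.

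**Figure D2:**
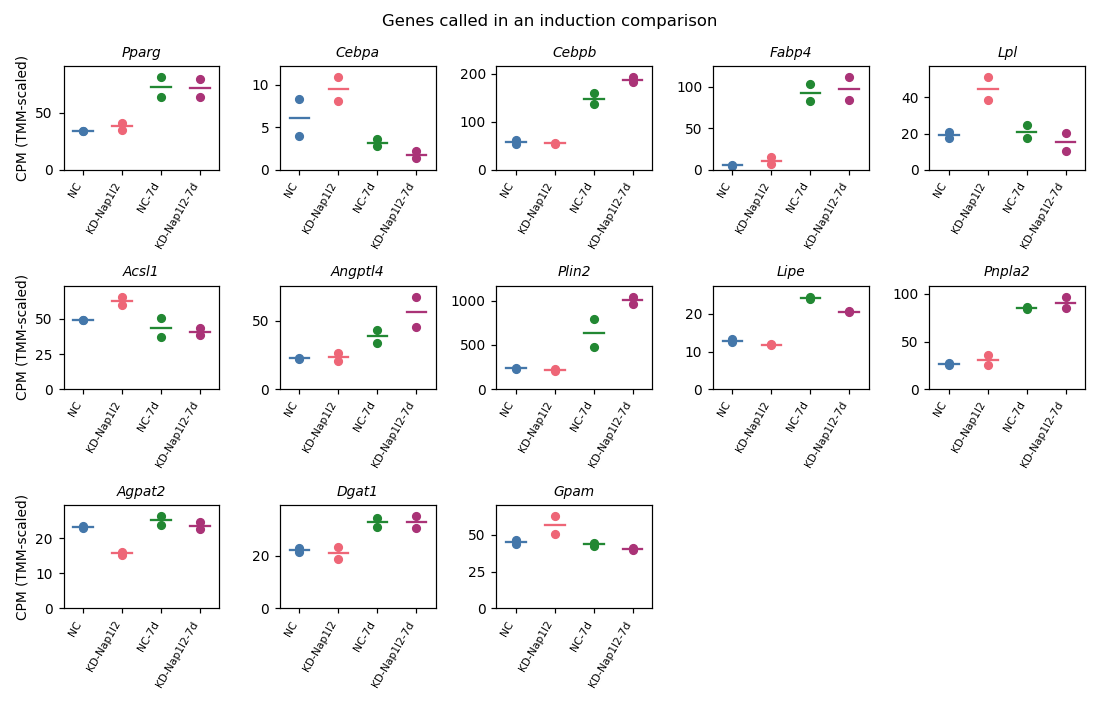
CPM (TMM-scaled, axes from 0) of the 13 genes called in an induction comparison, with a point for each library and a bar for the mean of the 2 libraries. *Fabp4*, *Plin2*, *Pnpla2*, *Lipe*, *Cebpb* and *Pparg* are higher in every induced library than in any uninduced one, and *Lpl* is highest in the 2 KD-Nap1l2 libraries.

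Among the transcription factors, *Cebpb* and *Pparg* rose in both backgrounds. *Cebpb* (chr2:167688915-167690432, GRCm38.p6), an early factor of the cascade, was at 61.6 and 53.9 CPM in NC, 53.5 and 56.5 CPM in KD-Nap1l2, 159 and 137 CPM in NC-7d, and 182 and 192 CPM in KD-Nap1l2-7d. Every induced library was thus above every uninduced one. The rise was 2.56-fold in control cells (log2 fold change 1.36, SE 0.134, adjusted p = 0.00202) and 3.40-fold in shRNA cells (log2 fold change 1.77, SE 0.135, adjusted p = 0.000591). *Cebpd*, its partner in the early phase, went from 163 and 123 CPM in NC to 236 and 273 CPM in NC-7d. In the shRNA libraries *Cebpd* went from 133 and 184 CPM to 230 and 300 CPM. The induced libraries did not overlap the uninduced ones, but the adjusted p was 0.0601 in control and 0.0609 in shRNA cells. DESeq2 called *Cebpd* in both, with adjusted p = 0.00525 and 0.0115.

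*Pparg* (chr6:115360879-115490404), the master regulator of the fat lineage, was at 33.6 and 34.3 CPM in NC and 80.6 and 63.7 CPM in NC-7d, a 2.12-fold rise (log2 fold change 1.09, SE 0.167, adjusted p = 0.00965). In the shRNA libraries it went from 35.2 and 40.8 CPM to 63.6 and 79.1 CPM, a 1.88-fold rise (log2 fold change 0.91, SE 0.166, adjusted p = 0.0132). The 4 induced libraries were all above the 4 uninduced ones. The *Pparg* call was lost in control cells without either NC library, and in shRNA cells without KD-Nap1l2-7d replicate 2. With any 1 library left out, its log2 fold change stayed between 0.91 and 1.25 in control cells. In shRNA cells it stayed between 0.74 and 1.06. These fits leave 1 library in a group, so a lost call does not by itself show that the rise depends on that library.

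The transcripts show which *Pparg* start carried these counts. The deposited table lists 11 *Pparg* transcripts, of which 4 could be placed by their GENCODE match. Of these, 3 hold 475 codons, the PPARγ1 length, and begin at 115360951 or 115362292 on chromosome 6. The other, NM_011146.3, begins at 115422066, holds 505 codons and encodes PPARγ2. NM_011146.3 was at 0 counts in 7 libraries and at 24 counts, 1.74% of the gene's counts, in KD-Nap1l2-7d replicate 2. The second start had 198 and 438 counts in NC, 375 and 400 in KD-Nap1l2, 810 and 569 in NC-7d, and 643 and 785 in KD-Nap1l2-7d. The first start had 307 and 191, 184 and 239, 362 and 511, and 326 and 376 counts in the same order. Induced libraries were above uninduced ones of the same cells at both 475-codon starts, while transcripts that were not matched held 5.84% to 19.1% of the counts. No *Pparg* transcript was called in any comparison. The counting program assigned reads shared by these transcripts, so the split between starts is an estimate whose error is not known.

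**Figure D3:**
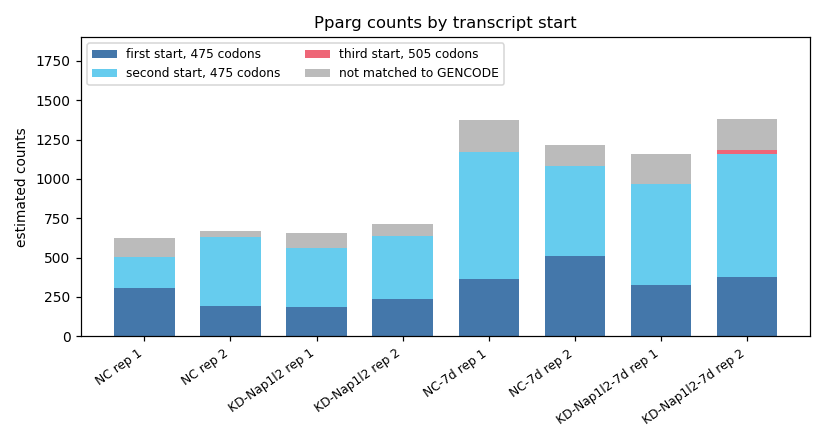
Estimated *Pparg* counts in each of the 8 libraries, stacked by the start that GENCODE gives the transcript. The 2 starts with 475 codons make up most of each bar, and the 505-codon start appears only in KD-Nap1l2-7d replicate 2, with 24 counts.

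The windows before the *Pparg* starts are shown because most counts lay at the 475-codon starts and few or none at the PPARγ2 start. They come from the 250 bases before 3 RefSeq starts in GRCm38.p6 (115361144, 115362349 and 115422066), 5′ to 3′ on the gene's plus strand. The first and second of these lie downstream of the GENCODE starts 115360951 and 115362292 given above, so their windows hold 193 and 57 bases after the GENCODE start, and only the bases before it are printed. The PPARγ2 start is the same in both annotations. Capitals mark matches on either strand to the C/EBP motif TTGCNNAA or to CCAAT. Over 32536 windows of the same length before RefSeq starts, 9.57% held the C/EBP motif and 33.8% held CCAAT.
Pparg before RefSeq start 115361144, chr6:115360894-115360950: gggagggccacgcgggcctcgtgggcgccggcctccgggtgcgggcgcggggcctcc
Pparg before RefSeq start 115362349, chr6:115362099-115362291: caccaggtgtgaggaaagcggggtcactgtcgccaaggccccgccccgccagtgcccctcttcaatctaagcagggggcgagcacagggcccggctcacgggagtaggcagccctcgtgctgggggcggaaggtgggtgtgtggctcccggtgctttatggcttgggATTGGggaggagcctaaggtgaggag
Pparg before PPARγ2 start 115422066, chr6:115421816-115422065: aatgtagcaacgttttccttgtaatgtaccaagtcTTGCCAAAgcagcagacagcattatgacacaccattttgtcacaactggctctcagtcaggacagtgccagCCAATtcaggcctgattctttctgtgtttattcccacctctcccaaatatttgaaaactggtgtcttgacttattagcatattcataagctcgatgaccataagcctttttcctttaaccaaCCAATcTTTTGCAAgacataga
The window of the PPARγ2 start held 2 C/EBP matches, at -215 to -208 and at -16 to -9 from the start, beside 2 CCAAT matches. Over its whole 250 bases, the second window held 1 CCAAT match on the other strand and the first held neither motif. GC content over the whole windows was 82.4%, 63.6% and 40.8% in this order. The window of *Plin1*, whose RNA was close to absent, also held 2 C/EBP matches, and that of *Plin2*, the highest gene after induction, held 1 CCAAT match and no C/EBP match. Both lie on the minus strand.
Plin1, chr7:79732777-79733026: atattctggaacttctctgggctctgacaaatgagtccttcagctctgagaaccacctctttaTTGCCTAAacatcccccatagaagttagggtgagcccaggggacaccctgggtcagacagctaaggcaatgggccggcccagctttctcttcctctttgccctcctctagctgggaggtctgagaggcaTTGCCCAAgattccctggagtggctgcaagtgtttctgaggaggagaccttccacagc
Plin2, chr4:86670060-86670309: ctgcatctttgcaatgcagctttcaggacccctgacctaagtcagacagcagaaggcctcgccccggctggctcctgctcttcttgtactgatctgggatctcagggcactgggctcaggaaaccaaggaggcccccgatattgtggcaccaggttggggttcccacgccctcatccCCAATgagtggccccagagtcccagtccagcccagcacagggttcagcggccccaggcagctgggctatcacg
A match is a description of these letters, and no binding was measured here. RefSeq windows were matched for 22 of the 33 genes, 32 windows in all, and 4 genes (*Cidec*, *Plin1*, *Pparg* and *Zfp423*) held the C/EBP motif in one of them. *Fabp4*, *Angptl4*, *Lpl* and *Cebpd* were among the genes without a window, so they were not searched. None of the 32 held the palindromic glucocorticoid response motif or the DR1 motif of PPAR response elements, which stood in 0.39% and 0.341% of all windows. With shares this low, absence from 32 windows says little.

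*Cebpa*, the late partner of *Pparg*, moved the other way. It was at 8.26 and 3.94 CPM in NC, 10.8 and 8.04 CPM in KD-Nap1l2, 2.76 and 3.63 CPM in NC-7d, and 2.20 and 1.37 CPM in KD-Nap1l2-7d. All 4 induced libraries were below all 4 uninduced ones. The fall in shRNA cells was called (5.26-fold lower, log2 fold change -2.40, SE 0.423, adjusted p = 0.0117), and the value in control cells was not (log2 fold change -0.93, SE 0.402, adjusted p = 0.204). The call in shRNA cells was lost without either induced library, with adjusted p = 0.0674 without replicate 1 and 0.102 without replicate 2 of KD-Nap1l2-7d. *Ebf1*, *Zfp423* and *Ebf2*, factors of the committed preadipocyte, and *Srebf1*, which drives lipid synthesis genes, passed the test in neither comparison. Their log2 fold changes ran from -0.53 (*Ebf1*) to 0.66 (*Ebf2*) in control cells and from -0.50 (*Zfp423*) to -0.12 (*Ebf2*) in shRNA cells.

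Among the called genes of the list, the largest rise in both inductions was that of *Fabp4* (chr3:10204342-10208616). *Fabp4* had 116 and 91 counts in NC, 126 and 278 in KD-Nap1l2, 1758 and 1572 in NC-7d, and 1531 and 1948 in KD-Nap1l2-7d. On the CPM scale these were 6.26 and 4.66, 6.76 and 15.9, 103 and 82.6, and 84.1 and 111 CPM. Induced and uninduced libraries were far apart, and the 2 induced groups overlapped. *Fabp4* rose 17-fold in control cells (log2 fold change 4.09, SE 0.395, adjusted p = 0.00192) and 8.66-fold in shRNA cells (log2 fold change 3.12, SE 0.372, adjusted p = 0.00298). The difference between these rises was -0.97 on the log2 scale and was not called (SE 0.508, adjusted p = 0.734). *Fabp5*, the related carrier of skin and other tissues, went from 6.21 and 11.2 CPM to 14.2 and 28.2 CPM in control cells (log2 fold change 1.28, adjusted p = 0.147) and from 9.55 and 22.2 CPM to 19.6 and 17.5 CPM in shRNA cells (0.22, adjusted p = 0.78).

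*Cd36*, the fatty acid transporter, differed widely between replicate libraries. It had 6 and 0 counts in NC, 7 and 1 in KD-Nap1l2, 90 and 1 in NC-7d, and 82 and 25 in KD-Nap1l2-7d. Uninduced libraries lay at 7 counts or fewer, and an induced library, NC-7d replicate 2, was among them. Neither induction passed the test (adjusted p = 0.207 in control and 0.172 in shRNA cells), although the log2 fold changes were 4.0 in control cells (SE 1.75) and 3.72 in shRNA cells (SE 1.66), the latter above that of *Fabp4*. Without NC-7d replicate 1 the value in control cells turned to -1.48. Without NC-7d replicate 2 the adjusted p was 0.0403. In shRNA cells *Cd36* was called at adjusted p = 0.0427 at the lowest, in 3 of 15 alternative fits.

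*Angptl4*, an inhibitor of lipoprotein lipase that glucocorticoids and PPARs induce, rose in shRNA cells from 20.3 and 26.6 CPM to 67.4 and 45.1 CPM (2.40-fold, log2 fold change 1.26, SE 0.228, adjusted p = 0.0126). In control cells it went from 22.9 and 22.1 CPM to 43.3 and 33.9 CPM (log2 fold change 0.78, SE 0.227, adjusted p = 0.0781). The induced libraries lay above the uninduced ones in both. Without KD-Nap1l2-7d replicate 1 its adjusted p in shRNA cells was 0.0942. *Lpl* (chr8:68880555-68906932), the lipoprotein lipase itself, fell in shRNA cells from 38.3 and 51.0 CPM to 10.4 and 20.3 CPM (2.90-fold lower, log2 fold change -1.54, SE 0.32, adjusted p = 0.0205). In control cells it was at 20.7 and 17.6 CPM before and 17.4 and 24.5 CPM after induction, and these libraries overlapped (log2 fold change 0.13, SE 0.316, adjusted p = 0.839). The fall of *Lpl* lost its call without KD-Nap1l2 replicate 2 (adjusted p = 0.0737) and without KD-Nap1l2-7d replicate 1 (adjusted p = 0.107).

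*Acsl1*, which activates fatty acids with coenzyme A, fell in shRNA cells from 59.6 and 65.8 CPM to 38.2 and 43.4 CPM (1.54-fold lower, adjusted p = 0.0431). In NC and NC-7d its libraries overlapped, at 49.4 and 48.9 CPM and at 37.1 and 50.6 CPM. The KD-Nap1l2 libraries were the highest, and the called fall started from them. This call was lost in 6 of the 8 fits that left out 1 library, with adjusted p up to 0.242 without KD-Nap1l2-7d replicate 1.

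The droplet and lipolysis genes of the list that could be tested gave 3 calls of 4 in each comparison, all higher. Of all genes, 8.21% were called in control and 14.2% in shRNA cells. This is not a trait of such genes as a class. Of 14 further droplet and lipolysis genes described below, 0 rose and 1 fell in control cells, and 1 rose and 6 fell in shRNA cells. *Plin2* (chr4:86626910-86670217) was at 231 and 238 CPM in NC, 202 and 231 CPM in KD-Nap1l2, 796 and 475 CPM in NC-7d, and 1045 and 963 CPM in KD-Nap1l2-7d. All induced libraries were above the uninduced ones. The rise was 2.71-fold in control cells (log2 fold change 1.44, SE 0.234, adjusted p = 0.0117) and 4.65-fold in shRNA cells (log2 fold change 2.22, SE 0.24, adjusted p = 0.00213). The control call was lost without NC replicate 1 (adjusted p = 0.112) and without NC replicate 2 (adjusted p = 0.0634). A second row of the table also carries the symbol *Plin2*, with at most 5.72 counts, and is not included.

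*Pnpla2* (chr7:141455188-141460743), the adipose triglyceride lipase that takes the first fatty acid off a triglyceride, had closely matched replicates in control cells. It was at 25.6 and 27.8 CPM in NC, 25 and 35.6 CPM in KD-Nap1l2, 86.6 and 84.4 CPM in NC-7d, and 84.7 and 97.0 CPM in KD-Nap1l2-7d. It rose 3.20-fold in control cells (log2 fold change 1.68, SE 0.177, adjusted p = 0.00253) and 3.0-fold in shRNA cells (log2 fold change 1.58, SE 0.176, adjusted p = 0.00225). *Lipe*, the hormone-sensitive lipase that acts next, was at 12.6 and 13.3, 11.8 and 11.9, 24.6 and 24.0, and 20.7 and 20.4 CPM in the same order. *Lipe* rose 1.88-fold in control cells (adjusted p = 0.00845) and 1.73-fold in shRNA cells (adjusted p = 0.0102), with induced libraries all above uninduced ones. Its control call was lost without NC replicate 1 (adjusted p = 0.0856) and its call in shRNA cells without either KD-Nap1l2-7d library (adjusted p = 0.0879 and 0.0791). *Plin4*, a perilipin of nascent droplets, was at 359 and 378 CPM in NC and at 374 and 778 CPM in NC-7d, which overlapped, and at 247 and 225 CPM in KD-Nap1l2 and 264 and 399 CPM in KD-Nap1l2-7d. On the log2 scale it changed by 0.64 and 0.49, which was not called (adjusted p = 0.272 and 0.347).

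Of the 6 triglyceride synthesis enzymes, 0 were called in control cells by edgeR or by DESeq2, and *Dgat1* (log2 fold change 0.56) and *Lpin1* (0.59) had an unadjusted p under 0.05. In shRNA cells *Agpat2* and *Dgat1* rose and *Gpam* fell. *Agpat2*, whose loss causes lipodystrophy, was at 23.0 and 23.5 CPM in NC, 16 and 15.3 CPM in KD-Nap1l2, 26.3 and 23.8 CPM in NC-7d, and 22.6 and 24.4 CPM in KD-Nap1l2-7d. The 2 KD-Nap1l2 libraries were the lowest, and the called rise (1.5-fold, SE 0.133 on the log2 scale, adjusted p = 0.0264) started from them. *Dgat1*, which makes the last bond of the triglyceride, went from 23.4 and 18.9 CPM to 30.4 and 35 CPM in shRNA cells (1.54-fold, adjusted p = 0.0363) and from 22.9 and 21.3 CPM to 34.4 and 30.7 CPM in control cells (1.48-fold, adjusted p = 0.0694). *Gpam*, which makes the first bond, went from 62.9 and 50.8 CPM to 41.3 and 39.5 CPM in shRNA cells (1.41-fold lower, adjusted p = 0.0465) and stayed between 42.8 and 46.4 CPM in the 4 control libraries. With 1 library left out, *Agpat2* was still called in 5 of 8 fits, *Dgat1* in 3 and *Gpam* in 1, with adjusted p up to 0.163, 0.205 and 0.211, and these highest values came without KD-Nap1l2-7d replicate 2.

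The remaining enzymes of this group were not called. *Dgat2*, the other enzyme of the last step, was at 36.7 and 77.3 CPM in KD-Nap1l2, whose 2 libraries were far apart, and at 25.1 and 29.2 CPM in KD-Nap1l2-7d (log2 fold change -1.07, SE 0.355, adjusted p = 0.0828). DESeq2 called this value (adjusted p = 0.0143), and so did edgeR without KD-Nap1l2 replicate 1 only among the left-out libraries. In control cells it was at 33.9 and 28.3 CPM before and 16.8 and 27.8 CPM after (log2 fold change -0.48). *Gpd1*, which makes glycerol phosphate, was at 2.7 and 4.0 CPM in NC and 2.46 and 1.84 CPM in NC-7d (log2 fold change -0.64, adjusted p = 0.272), and at 2.20 and 1.71 CPM and 1.98 and 1.83 CPM in the shRNA groups. *Lpin1*, the phosphatase before the last step, was not called either, at 0.59 in control cells (adjusted p = 0.136) and 0.27 in shRNA cells (adjusted p = 0.413).

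Fatty acid synthesis and desaturation gave 0 calls of 4 in both comparisons, with 2 genes (*Scd1* and *Acaca*) at an unadjusted p under 0.05 in control cells and 1 (*Scd2*) in shRNA cells. DESeq2 called *Scd1* alone, in control cells (adjusted p = 0.0295). *Scd1*, the desaturase of liver and fat, was at 129 and 132 CPM in NC, 165 and 138 CPM in KD-Nap1l2, 207 and 191 CPM in NC-7d, and 96.6 and 136 CPM in KD-Nap1l2-7d. The 2 NC-7d libraries were the highest, and the KD-Nap1l2-7d libraries lay below those of KD-Nap1l2 and overlapped those of NC. *Scd2* was at 827 and 902, 1201 and 944, 1017 and 1111, and 633 and 864 CPM in this order, again with KD-Nap1l2-7d below KD-Nap1l2 and NC-7d above NC. *Fasn*, the fatty acid synthase, and *Acaca*, which supplies it with malonyl-CoA, had log2 fold changes of 0.10 to 0.45 over both comparisons. The counts of *Scd1*, *Scd2*, *Lpl*, *Cebpd* and 4 others were not whole in some libraries, which marks reads shared with another entry.

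**Figure D4:**
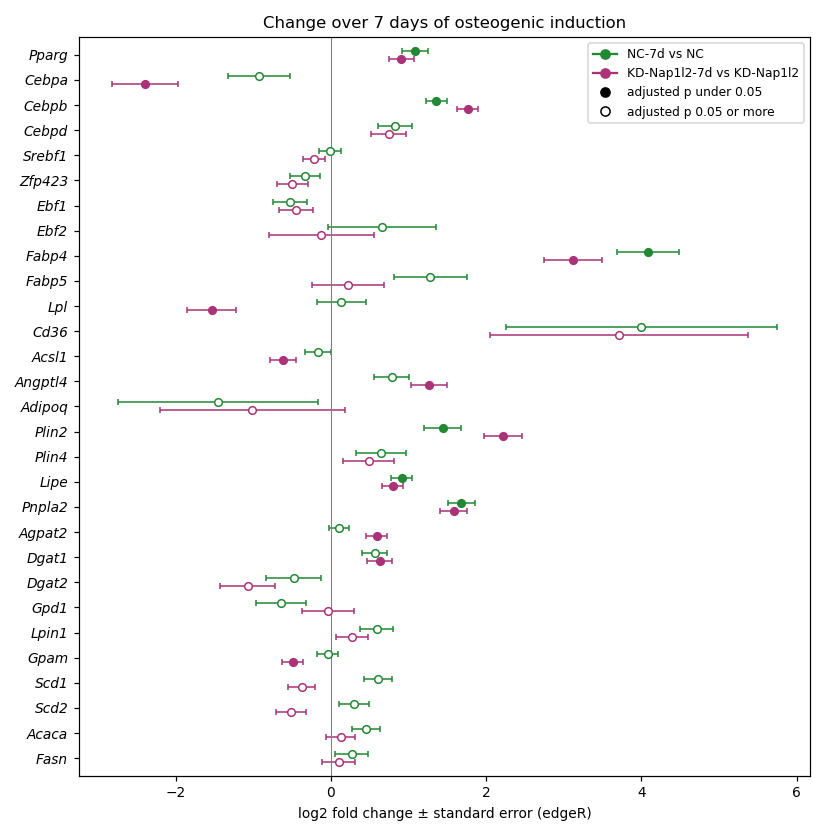
Log2 fold change with its standard error over 7 days of osteogenic induction, for the 29 tested genes in control cells (green) and in cells with the shRNA (purple). Filled points have an adjusted p under 0.05. *Fabp4* lies farthest right among the filled points, at 4.09 and 3.12, and *Cebpa* farthest left, at -2.40 in shRNA cells, while *Cd36* and *Adipoq* have the widest errors.

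Calls differed in how often they were kept when 1 library was left out. *Fabp4*, *Cebpb* and *Pnpla2* were called in control cells in all 8 fits that left out 1 library, and *Fabp4*, *Cebpb*, *Pnpla2* and *Plin2* in shRNA cells. The same 3 and 4 genes also passed in all 16 alternative fits. At the level of transcripts, 91 of the 118 listed for these genes could be tested. The calls were 3, all in shRNA cells, where 0.144% of all transcripts were called, and all 3 were entries of *Cebpb* with identical counts on its single exon, so they count as 1. In control cells 0 of these transcripts were called by edgeR, where 0.018% of all transcripts were. An unadjusted p under 0.05 was found for 17 in control and 18 in shRNA cells. The share over all transcripts was not counted at that level, and identical entries, as those of *Cebpb* and *Cebpa*, enter separately. No result is therefore read from these 2 numbers. DESeq2 was not run on transcripts.

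The shRNA comparisons ask whether the cells labelled as depleted of *Nap1l2* differed in these genes before or after induction. By edgeR, 0 of the 29 genes were called in either. Before induction, where 0.0817% of all genes were called, 8 of the 29 had an unadjusted p under 0.05 (13.7% of all genes did) and DESeq2 called 1, *Lpl*. After induction, where 0% of all genes were called, 9 had an unadjusted p under 0.05 (7.85% of all genes) and DESeq2 called 1, *Scd1*. These shares of called genes are edgeR's. DESeq2 called more of all genes in both comparisons, as counted below with the processing, so its single calls stand against a higher background. The smallest adjusted p was 0.135 (*Agpat2*) before and 0.452 (*Scd1*) after induction. The median log2 difference was 0.16 before and -0.09 after, against 0.01 and -0.0056 over all genes.

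Before induction the largest values were those of *Lpl* and *Fabp4*. *Lpl* was at 38.3 and 51.0 CPM in KD-Nap1l2 against 20.7 and 17.6 CPM in NC, without overlap (log2 difference 1.22, SE 0.315, adjusted p = 0.164 by edgeR and 0.00806 by DESeq2). *Fabp4* was at 6.76 and 15.9 CPM against 6.26 and 4.66 CPM (log2 difference 1.05, SE 0.383, adjusted p = 0.285), and *Dgat2* followed (0.87, adjusted p = 0.332). *Gpd1* (-0.77), *Ebf1* (-0.69) and *Plin4* (-0.64) were the lowest, with adjusted p = 0.355, 0.23 and 0.441. Replicates of KD-Nap1l2 differed in several of these genes. Without KD-Nap1l2 replicate 1, edgeR called 3 genes, *Fabp4* higher (adjusted p = 0.0344) and *Ebf1* and *Zfp423* lower (adjusted p = 0.0329 and 0.0471).

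After induction *Plin2* had the highest value. It was at 1045 and 963 CPM in KD-Nap1l2-7d against 796 and 475 CPM in NC-7d (log2 difference 0.66, SE 0.23, adjusted p = 0.552). *Adipoq* (0.58, at most 8 counts) and *Angptl4* (0.54, adjusted p = 0.618) were next. *Cebpa* (-0.84, adjusted p = 0.697), *Plin4* (-0.80, adjusted p = 0.614) and *Scd1* (-0.77, SE 0.18) had the lowest values, and *Scd1* was called by DESeq2 (adjusted p = 0.0293). The sign for *Adipoq* turned without NC-7d replicate 2 (-0.21) or KD-Nap1l2-7d replicate 2 (-1.51).

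The preadipocyte factor *Ebf1* was lower in the shRNA libraries at both times. *Ebf1* was at 202 and 127 CPM in KD-Nap1l2 against 288 and 245 CPM in NC, and at 117 and 124 CPM in KD-Nap1l2-7d against 199 and 170 CPM in NC-7d. *Zfp423*, *Srebf1* and *Lipe* likewise had both shRNA libraries below both control libraries at both times, which makes 4 of 29 genes, against 6.62% of all genes, while 0 of 29 were higher at both times, against 6.39% of all genes. The log2 differences of *Ebf1* were -0.69 and -0.61, those of *Zfp423* -0.39 and -0.55, those of *Srebf1* -0.13 and -0.34, and those of *Lipe* -0.12 and -0.24. None of these 8 values was called, with adjusted p of 0.23 or more. *Scd1*, *Scd2* and *Gpam* were higher in both shRNA libraries before and lower after induction, as were 2.95% of all genes.

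**Figure D5:**
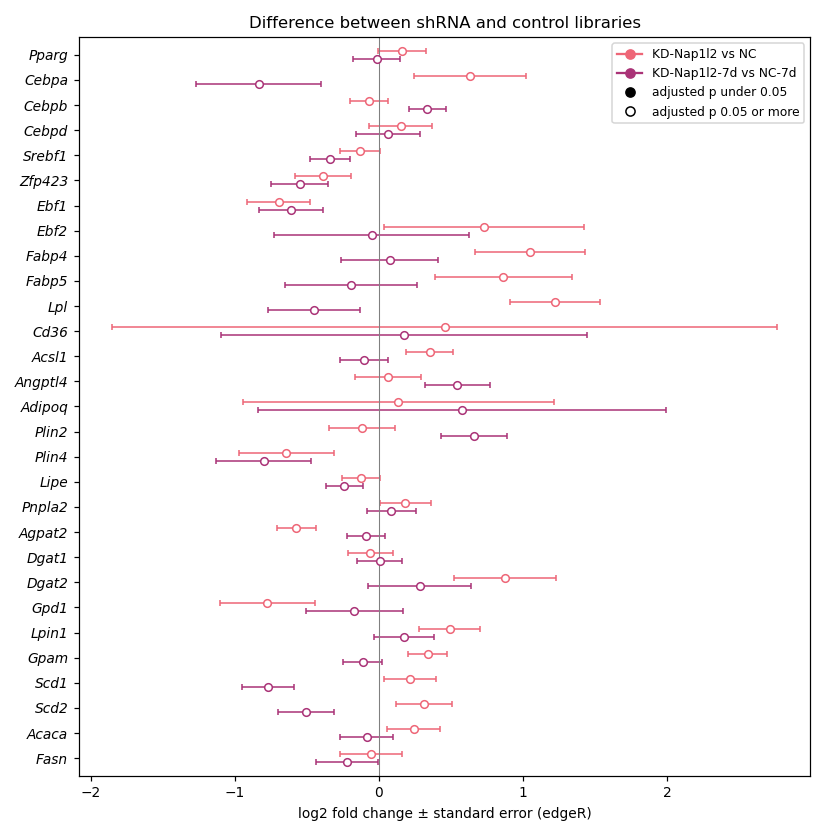
Log2 difference between shRNA and control libraries, with its standard error, for the 29 tested genes before (red) and after (purple) induction. All points are open, since 0 genes had an adjusted p under 0.05. *Ebf1*, *Zfp423* and *Plin4* lie left of 0 at both times, and *Lpl* lies at 1.22 before and at -0.45 after induction.

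The difference between the induction changes of shRNA and control cells was tested directly, and edgeR called 0 of 29 genes, as it called 0% of all genes. An unadjusted p under 0.05 was found for 7 of the 29 (7.04% of all genes), 2 with a larger and 5 with a smaller log2 change in shRNA cells. DESeq2 called 1 of the 29, *Lpl*, and its count over all genes is given below with the processing. The lowest values were those of *Lpl* (-1.67, SE 0.448, adjusted p = 0.511 by edgeR and 0.0397 by DESeq2), *Cebpa* (-1.47, SE 0.578, adjusted p = 0.681) and *Fabp5* (-1.06, SE 0.658, adjusted p = 0.787). The highest were *Plin2* (0.78, SE 0.325, adjusted p = 0.702), *Gpd1* (0.60, SE 0.469, adjusted p = 0.822) and *Agpat2* (0.48, SE 0.186, adjusted p = 0.68). The genes called in only one of the inductions are therefore not shown to differ between the cells by this test.

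Related genes outside the list were counted in the same way. Their lists were chosen with earlier results of these data known, so the shares are descriptions and not independent tests. Each count can be read against the 8.21% of all genes called in control cells and the 14.2% called in shRNA cells. Of the glucocorticoid-induced genes tested, 9 of 14 (64.3%) were called higher and 0 lower in control cells, and likewise 9 and 0 in shRNA cells. The largest rises were those of *Fkbp5* (log2 fold change 5.0) and *Sult1a1* (3.53) in control cells, and of *Fkbp5* (5.33) and *Lcn2* (4.72) in shRNA cells, where *Sult1a1* followed (4.52). *Lcn2*, a lipocalin that binds bacterial siderophores, rose by 2.75 in control cells. *Fkbp5*, a chaperone of the glucocorticoid receptor, was at 8.37 to 18.0 CPM in the 4 uninduced and 350 to 496 CPM in the 4 induced libraries. Their part in the rise of *Cebpb*, *Angptl4* or *Fabp4* was not tested. In this design dexamethasone cannot be told apart from the rest of the induction or from time in culture. Of 33 further regulators of fat cell formation, 1 rose and 3 fell in control cells (12.1%), and 3 rose and 2 fell in shRNA cells (15.2%, close to the share of all genes). *Klf15*, a glucocorticoid-responsive factor, rose in both (2.02 and 2.27), and *Nr3c1*, the glucocorticoid receptor, fell in both (-1.12 and -1.15). *Ppargc1a*, a coactivator of mitochondrial genes, fell in control cells (-2.01). In shRNA cells *Klf9* rose (1.29) and *Tcf7l2* fell (-1.02), and the fall of *Tcf7l2* was called in control cells too. Of 14 further droplet and lipolysis genes, 0 rose and 1 fell in control cells (7.14%), and 1 rose and 6 fell in shRNA cells (50%). *G0s2*, the inhibitor of the *Pnpla2* lipase, fell by 3.82 and 3.94 on the log2 scale, from 3.22 to 6.10 CPM in uninduced to 0.172 to 0.42 CPM in induced libraries. *Ces1d*, a carboxylesterase, fell in shRNA cells (-2.25). *Abhd5*, the activator of the same lipase, rose in shRNA cells (1.07, adjusted p = 0.0137).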

How the data were processed

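Polyadenylation or depletion steps are not given in the sources used here; libraries were made and sequenced by Beijing Genomics Institute. Estimated counts of genes and of transcripts were deposited by the authors for every library with no normalization, and in 41.1% of genes some count was fractional. The authors also deposited length-scaled values, read here as FPKM from their size and from their relation to the counts, since the column names do not state the unit. The submitters' processing notes name BWA, Bowtie2, RSEM and GRCm38.p6. Columns of the authors' own comparisons (fold changes and p-values) were not used.

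Estimated counts were rounded, scaled by TMM and filtered with filterByExpr (13470 of 18605 genes kept). All 8 libraries were fitted together by group with edgeR 4.0.16 in R 4.3.3, and each contrast was read from edgeR's quasi-likelihood test, Benjamini-Hochberg adjusted over all genes tested, with calls at an adjusted p under 0.05. Standard errors were taken as the absolute log2 fold change over √F. With 2 libraries a group, an exact permutation test could not pass 0.05 for a single gene. CPM values are TMM-scaled. A gene at 0 can hide up to 3 counts a library (0.154 to 0.172 CPM), and this limit covers counting error only. Replicate libraries differed more than sampling noise allows (chi-square per degree of freedom 14.7 to 74.8), so none was a duplicate.

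The genes and the lists of related genes were chosen with earlier results of these data known. Genes given in full are those called in any comparison and, in each comparison, the 3 largest rises and 3 largest falls. From each list of related genes, up to 2 called genes in each direction per induction are named. Genes named beside these were chosen after their values were seen. Gene symbols come from the table, positions and windows from RefSeq GRCm38.p6, and transcript starts from GENCODE on GRCm38 for transcripts it matches. Alternatives were DESeq2 1.42.0, RLE scaling, other filters, a fit of the compared libraries alone, a replicate block, limma 3.58.1 on log2(FPKM + 1) and log2(FPKM + 0.1), and leaving out each library.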

Additional observations from a re-analysis of the deposited data

How the results depend on the processing

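The number of the 33 genes called was 10 by DESeq2 in control cells over induction (6 by edgeR), 1 in KD-Nap1l2 against NC, 1 in KD-Nap1l2-7d against NC-7d and 1 for the difference of the induction changes (0 by edgeR in each), and 15 in shRNA cells over induction (13 by edgeR). Over all 13470 genes that passed the filter, DESeq2 called 1555, 462, 82, 97 and 2382 in these comparisons, against 1106, 11, 0, 0 and 1912 by edgeR. The calls of each program among the listed genes are to be read against its own counts. With each library left out in turn, the genes called ran from 3 to 9 in control cells, from 5 to 13 in shRNA cells, from 0 to 3 in KD-Nap1l2 against NC, and 0 throughout in the other 2 comparisons and among transcripts. A group left with 1 library was assumed to vary like the others. The 3 transcripts called became 12 when at least 10 counts were asked of every library, and 0 under the replicate block. The 12 calls cover both inductions together and hold the 3 identical *Cebpb* entries in each. The others were entries of *Pnpla2* and *Fabp4* in both inductions and of *Plin2* in shRNA cells. All of the log2 fold changes of named genes kept their sign except *Cd36* in control cells (-1.48 to 8.59 with a library left out, and negative without NC-7d replicate 1) and *Adipoq* in KD-Nap1l2-7d against NC-7d (-1.51 to 2.13, negative without replicate 2 of either group). The cause was not tested.

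Deviations of libraries with the same replicate number had correlations of -0.061 to 0.104 between pairs of groups. These values do not show whether such libraries share a batch or a culture. With the replicate number as a block, 6, 12, 0, 0 and 0 genes were called in the 5 comparisons, and *Gpam* in shRNA cells was lost (adjusted p = 0.0597). Besides, *Gpam*, *Dgat1*, *Acsl1* and *Agpat2* lost their call in at least 1 other setting that kept all libraries. DESeq2, FPKM and the compared libraries alone were not run for transcripts, nor the last for the difference. Genes at a few counts, *Cd36* and *Adipoq*, gave values that single libraries decided.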

Other observations

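Of 22 fatty acid oxidation genes tested, 3 rose and 0 fell in control cells and likewise in shRNA cells. These are 13.6% of the genes, against 8.21% of all genes called in control cells and 14.2% in shRNA cells, so the share in shRNA cells is at the background. *Pdk4*, the kinase that shifts mitochondria from glucose to fatty acids, rose by a log2 fold change of 3.09 in control cells (adjusted p = 0.00143) and 3.10 in shRNA cells (adjusted p = 0.000849), from 23.1 to 40.1 CPM in uninduced to 209 to 303 CPM in induced libraries. *Cpt1a*, which moves fatty acids into mitochondria, rose by 0.82 and 0.93. The third gene was *Acadm* in control cells (0.70) and *Acadl* in shRNA cells (0.84).

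Among 11 tested adipokine and late fat cell genes, 3 rose and 0 fell in each induction (27.3%). *Cdo1*, the cysteine dioxygenase of liver and fat, rose by 3.15 and 4.21 on the log2 scale, from 50.9 and 54.2 CPM in NC to 484 and 447 CPM in NC-7d, and from 26.1 and 22.6 CPM in KD-Nap1l2 to 401 and 498 CPM in KD-Nap1l2-7d. *Adipor2*, an adiponectin receptor, rose by 1.22 and 1.17, and *Pcx*, pyruvate carboxylase, by 0.87 and 0.66.

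Of 13 further triglyceride synthesis genes, 2 rose in control cells (*Lpin3*, 1.57, and *Agpat3*, 0.67), and 3 rose and 1 fell in shRNA cells (*Gpat3*, 2.10, *Lpin3*, 1.74, and *Agpat3*, 0.77, against *Lclat1*, -0.56), which is 15.4% and 30.8% of them. Of 19 further fatty acid synthesis genes, *Fads3* rose in control cells (0.53) and *Elovl6* fell in shRNA cells (-0.80), 5.26% in each and below the share of all genes. Of 12 further uptake genes, 0 were called in control cells, and *Slc27a1* (1.45) and *Acsl4* (1.08) rose and *Acsl3* (-0.49) fell in shRNA cells (25%). Of 15 mesenchymal markers tested, 2 fell in control cells (*Thy1*, -1.49, and *Col3a1*, -1.46) and 8 in shRNA cells, led by *Col3a1* (-2.20) and *Thy1* (-1.34), and 0 rose (13.3% and 53.3% called). Of 11 osteoblast markers, 7 had enough counts to be tested, and 0 of these were called in control cells. In shRNA cells *Spp1* rose (1.41), and *Col1a1* (-1.25), which is also on the mesenchymal list, and *Runx2* (-0.58) fell. These are 42.9% of those tested, against 14.2% of all genes. The epithelial marker *Cdh1* fell in both (-1.33 and -1.41), the endothelial marker *Tek* fell in shRNA cells (-2.81), and 0 of 4 blood cell markers were called. In the shRNA comparisons edgeR called 1 gene of all these lists, *Sult1a1*, lower in KD-Nap1l2 than in NC.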
